A study of Mus musculus with 24 samples.

Results

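The collagen genes were described in sorted pancreatic progenitor cells of mouse embryos that carried either 0 or 1 working copy of Ngn3 and whose dams ate 1 of 3 diets. The set held every protein-coding gene whose symbol is Col, a number, the letter a and a number, which gave 44 of the 40173 genes in the count table. Its members were set by name alone, but the set was chosen with earlier results of these data known. All 44 genes passed the filter on low counts.

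The samples were eGFP-positive cells sorted from dissociated pancreata at E15.5, with both sexes pooled. Ngn3 (gene symbol Neurog3), a transcription factor that starts the endocrine fate in the pancreas, had its coding region replaced by eGFP. Mutant libraries were made from Ngn3eGFP/eGFP embryos, in which eGFP-positive cells are held short of the endocrine fate. Control libraries were made from Ngn3eGFP/+ embryos, in which eGFP-positive cells have taken that fate. Controls therefore also lacked 1 Ngn3 allele, and cells with 2 intact alleles were not among the samples. The dams were Ngn3eGFP/+ females that started on a high-fat diet (HFD), a low protein diet (LPD) or normal diet (ND) at 6 weeks of age, 2 weeks before mating, and stayed on it until the embryos were collected. The sires were Ngn3eGFP/+ males kept on control diet. The sources used here do not name the strain. There were 3 mutant and 3 control libraries on HFD, 4 mutant and 4 control libraries on LPD, and 4 mutant and 3 control libraries on ND. Groups follow the sample titles: the genotype entries of the labels name the alleles the other way round in every library.

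Neurog3 stood at 6.13 to 23.2 CPM (counts-per-million, of the library total) in the 11 mutant libraries, against 98.95 to 276 in the 10 control libraries, so its level matched the titles in every library. A library titled as a control on ND, which the labels call mixed in genotype, and a pair of hypothalamic libraries stayed out of all comparisons. The 21 libraries held 17922240 to 44688814 counts each. Duplicate reads exceeded 70% in mutant ND 2, mutant ND 3 and control ND 2, and 1 gene, Gm26917, took 66.9%, 33.4% and 32.7% of their counts, against 9.21% to 18.7% in the other 18 libraries. The sources used here do not say whether libraries of 1 group came from separate litters, so p-values measure the spread between libraries. In sorted bulk RNA, fewer cells of a type and less RNA per cell cannot be told apart.

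Collagens are trimeric proteins of the extracellular matrix. Fibrillar collagens (types I, II, III, V, XI, XXIV and XXVII) build the fibrils of connective tissue and cartilage, and are made mainly by mesenchymal cells. Type IV collagens form the sheet of the basement membrane under epithelia and around vessels, while multiplexins (types XV and XVIII) sit in that membrane. Fibril-associated collagens, such as type IX, decorate the surface of fibrils. In the pancreas, epithelial buds grow within mesenchyme, and the basement membrane between them carries collagens from several cell types.

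The promoters of 4 genes are shown: Col11a2 and Col9a2 because they were called lower in mutants on all 3 diets, and the type IV pair Col4a5 and Col4a6 because they share 1 intergenic region and both were called higher in mutants on ND. Each line holds the 250 bases before and the 50 bases from the RefSeq transcript start, on the gene's own strand, in GRCm38.p6. Capitals mark matches to the E-box motif CANNTG, the letters that basic helix-loop-helix factors such as Neurog3 bind. The windows are chr17:34038888-34039187 (plus strand) for Col11a2, chr4:121039316-121039615 (plus strand) for Col9a2, chrX:141475169-141475468 (plus strand) for Col4a5 and chrX:141474027-141474326 (minus strand) for Col4a6.
Col11a2: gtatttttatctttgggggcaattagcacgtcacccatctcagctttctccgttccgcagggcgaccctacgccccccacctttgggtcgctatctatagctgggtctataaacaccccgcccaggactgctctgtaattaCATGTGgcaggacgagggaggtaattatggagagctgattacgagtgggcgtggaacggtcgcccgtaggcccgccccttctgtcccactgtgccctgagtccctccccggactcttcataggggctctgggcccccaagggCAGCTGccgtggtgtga
Col9a2: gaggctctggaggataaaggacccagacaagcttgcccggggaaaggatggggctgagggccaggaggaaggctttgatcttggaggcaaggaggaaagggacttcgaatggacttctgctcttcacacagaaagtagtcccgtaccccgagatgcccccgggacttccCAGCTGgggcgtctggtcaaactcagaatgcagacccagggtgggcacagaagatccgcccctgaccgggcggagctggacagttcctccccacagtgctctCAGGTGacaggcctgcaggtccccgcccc
Col4a5: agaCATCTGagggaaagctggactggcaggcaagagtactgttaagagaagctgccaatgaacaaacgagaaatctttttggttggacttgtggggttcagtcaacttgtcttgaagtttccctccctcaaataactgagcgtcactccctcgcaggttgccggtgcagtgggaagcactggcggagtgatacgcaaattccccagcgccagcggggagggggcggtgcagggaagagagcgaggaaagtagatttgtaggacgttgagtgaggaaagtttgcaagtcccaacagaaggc
Col4a6: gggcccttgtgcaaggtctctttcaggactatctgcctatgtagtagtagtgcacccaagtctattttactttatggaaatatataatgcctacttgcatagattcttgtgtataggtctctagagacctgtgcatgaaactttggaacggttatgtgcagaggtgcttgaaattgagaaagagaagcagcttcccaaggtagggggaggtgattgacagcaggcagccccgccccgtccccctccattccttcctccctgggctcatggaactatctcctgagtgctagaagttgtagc
Both strands were searched. Col11a2 held CATGTG and CAGCTG, Col9a2 held CAGCTG and CAGGTG, and Col4a5 held CATCTG, while the Col4a6 window held no CANNTG. The motif is common: it lay in 72.3% of all 32851 windows of this length, and in 20 of the 35 collagen genes that have a window. The variant CAGATG, which reads CATCTG on the other strand and is a case of CANNTG, lay in 17.2% of all windows and in those of 4 collagen genes, Col4a5 among them. AACAAT, a core sequence that SOX factors bind, lay in 10.7% of all windows and in 1 collagen window. These matches describe the letters in the windows and not binding.

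Collagen transcripts made up 0.0926% to 0.554% of all counts in the 21 libraries. Per length, as deposited FPKM averaged over these libraries, Col1a1 (63.2 FPKM, the alpha 1 chain of type I) stood highest, followed by Col4a1 (41.1 FPKM, the main basement membrane chain), Col3a1 (32.4 FPKM, type III of soft connective tissue), Col18a1 (25.5 FPKM, source of endostatin) and Col9a2 (24.6 FPKM, a type IX chain). Col4a3, a type IV chain of the kidney filter, stood lowest at 0.0353 FPKM. Fibrillar genes held 19.6% to 72.6% of the summed collagen FPKM of a library, type IV genes 11.3% to 43.6%, fibril-associated genes 6.38% to 27.9% and multiplexins 4.15% to 17.1%.

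Over the 21 libraries Col1a1 FPKM was 2.62 to 3.997 times that of Col1a2 (median 3.30), although Col1a1 itself ran between 5.96 and 271 FPKM. Col4a1 was 1.62 to 2.19 times Col4a2 (median 1.75), and Col4a5 was 3.01 to 4.55 times Col4a6 (median 3.51). Col6a1 was 1.22 to 2.20 times Col6a2 (median 1.52), and Col4a3, of few counts, was 0 to 0.376 times Col4a4 (median 0.193) in the 20 libraries where Col4a4 was above 0. These ratios are descriptions across libraries that share 6 groups.

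**Figure D1:**
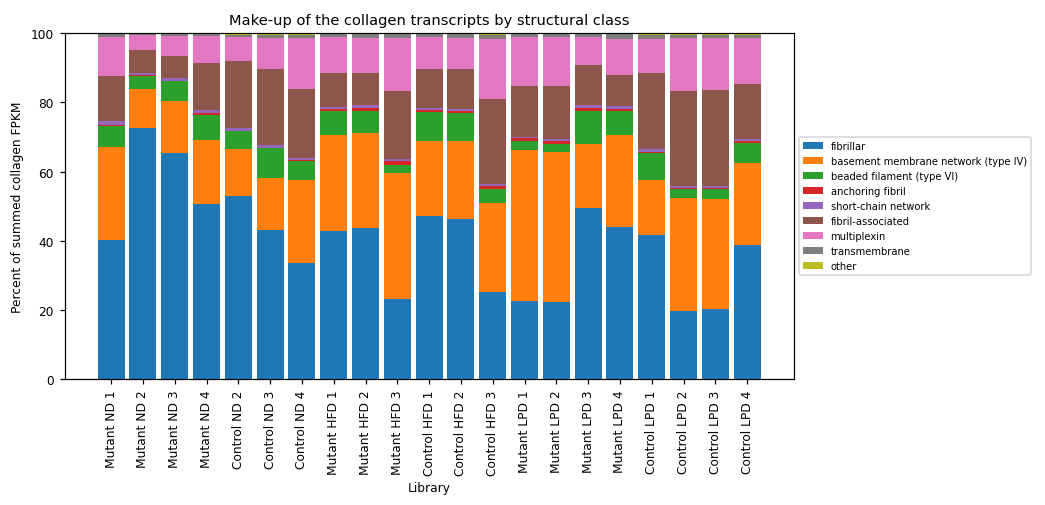
Share of summed collagen FPKM (percent, vertical axis) held by each collagen class in each of the 21 libraries (horizontal axis, grouped by diet with mutant libraries left of control libraries). Fibril-associated genes held 6.38% to 13.8% in mutant ND libraries against 19.3% to 21.8% in control ND libraries, and the fibrillar share ran between 19.6% and 72.6% over all libraries.

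The first question was which collagen genes differed between mutant and control cells on each diet. Col11a2 and Col9a2 were lower in mutants on all 3 diets, and they were the 2 genes called in all 3 comparisons. On ND 7 of the 44 genes rose in mutants and 3 fell, an overall share of 22.7% against 27% of all 23630 genes tested, of which 13.7% rose and 13.3% fell (edgeR quasi-likelihood test, Benjamini-Hochberg adjusted p under 0.05). On HFD 0 rose and 2 fell, 4.55% against 5.78% of all genes, of which 0.14% rose and 5.64% fell. On LPD 1 rose and 6 fell, 15.9% against 15.6% of all genes, where 5.22% rose and 10.4% fell. The share of collagen genes called was thus near or below that of all genes on each diet. Together 14 genes were called on at least 1 diet.

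The median log2 fold change of the 44 genes was 0.76 on ND, -0.50 on HFD and 0.19 on LPD, against 0.0095, -0.0099 and 0.025 over all genes tested. On ND 31 values were positive and 13 negative, on HFD 9 and 35, and on LPD 28 and 16. Scaling bears on the ND split. Scaling by trimmed mean of M values (TMM) gave mutant ND 2 a factor of 0.381, and on deposited FPKM (limma on log2(FPKM + 1), where the median of all genes moved to -0.23) 3 genes rose and 7 fell on ND, and 3 rose and 9 fell on LPD. A fit on the compared libraries alone kept only the Col11a2 and Col4a6 calls on ND. On HFD, without mutant HFD 1 or without mutant HFD 2, 1 gene was called. On LPD, 3 genes were called without mutant LPD 1, 4 without mutant LPD 2, control LPD 2 or control LPD 3, and 14 without mutant ND 2.

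**Figure D2:**
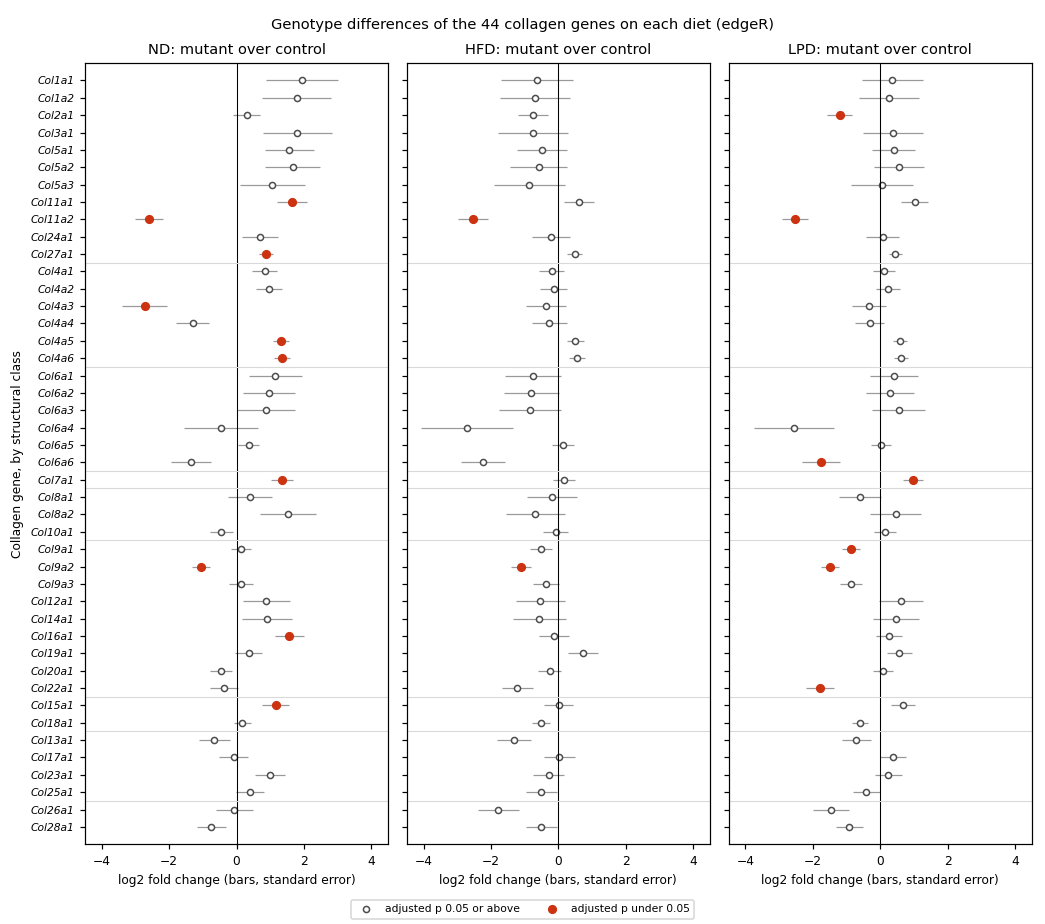
Log2 fold change of mutant over control (horizontal axis) for each of the 44 collagen genes (vertical axis, grouped by class) on ND, HFD and LPD, with bars of 1 standard error; filled red points passed an adjusted p of 0.05. Col11a2 lies between -2.59 and -2.53 and Col9a2 between -1.49 and -1.06 on the 3 diets, and most other called genes are called on 1 diet.

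Col11a2 (ENSMUSG00000024330.17, chr17:34039437-34066685, GRCm38.p6) encodes the alpha 2 chain of type XI, a minor fibrillar collagen best known from cartilage. It had 12.5, 33.9, 7.82 and 9.54 TMM-scaled CPM in mutant ND libraries, against 154, 61.3 and 65.1 CPM in control ND libraries. On HFD it had 7.47, 8.24 and 7.74 CPM in mutants, against 40.8, 38.0 and 56.4 CPM in controls. On LPD it had 14.4, 15.6, 7.76 and 10.5 CPM in mutants, against 73.0, 69.6, 82.6 and 54.9 CPM in controls. Every mutant library was below every control library of its diet, as in 14.9% of all genes on ND, 18.2% on HFD and 14.6% on LPD, and mutant HFD libraries differed little among themselves. The log2 fold change was -2.59 ± 0.41 on ND (standard error, edgeR adjusted p = 9.83e-05), -2.53 ± 0.45 on HFD (edgeR adjusted p = 0.000922) and -2.54 ± 0.39 on LPD (edgeR adjusted p = 0.000103). This was 6.03-fold lower on ND, 5.76-fold lower on HFD and 5.80-fold lower on LPD. The call held under each of the 34 alternatives run on each diet. In deposited FPKM Col11a2 had 0.895 to 2.06 FPKM in mutant ND libraries and 10.98 to 20.2 FPKM in control ND libraries. The mixed library, which entered no test, had 9.47 FPKM.

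Col11a1, the partner chain of Col11a2 in type XI, moved the other way. It had 16.8, 50.4, 20.5 and 9.42 CPM in mutant ND libraries, against 11.9, 3.96 and 7.23 CPM in controls, and the groups overlapped. It rose by 1.65 ± 0.44 on the log2 scale on ND (edgeR adjusted p = 0.00784), and without control ND 3 the adjusted p was 0.0519; on FPKM (limma) it kept the call with a pseudocount of 1 and lost it with 0.1. On HFD it had 12.5 to 16.2 CPM in mutants and 7.29 to 10.7 CPM in controls, and on LPD 12.97 to 18.7 CPM in mutants and 4.28 to 10.4 CPM in controls. Groups did not overlap on these diets, but the adjusted p was 0.637 on HFD and 0.0837 on LPD.

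Col9a2 (chr4:121039385-121055322) encodes a chain of type IX, which coats type II and XI fibrils. It had 54.1, 105, 50.6 and 57.9 CPM in mutant ND libraries, against 202, 114 and 100.4 CPM in control ND libraries. On HFD it had 25.1, 23.7 and 37.4 CPM in mutants, against 57.6, 52.0 and 77.4 CPM in controls. On LPD it had 45.0, 47.8, 34.3 and 33.1 CPM in mutants, against 107, 126, 142 and 75.3 CPM in controls. Groups were apart on HFD and LPD, while on ND mutant ND 2 passed the lowest control. In FPKM the ND groups did not overlap, with 12.9 to 19.8 FPKM in mutants and 39.2 to 59.2 FPKM in controls. Col9a2 fell by 1.06 ± 0.28 on the log2 scale on ND (edgeR adjusted p = 0.00655), by 1.12 ± 0.30 on HFD (edgeR adjusted p = 0.0261) and by 1.49 ± 0.26 on LPD (edgeR adjusted p = 0.000365). The LPD call held under all 34 alternatives. The ND call was lost in a fit on the compared libraries alone. Without control ND 2 the ND adjusted p was 0.0798, and without control HFD 3, mutant HFD 1 or mutant HFD 2 the HFD adjusted p reached 0.152.

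Of the collagens that assemble with Col9a2 in cartilage, Col2a1 and Col9a1 fell in mutants on LPD. Col2a1, the main fibril chain of cartilage, had 20.2, 20.1, 11.97 and 18.8 CPM in mutant LPD libraries, against 33.8, 39.6, 45.5 and 44.6 CPM in control LPD libraries. Col9a1, another type IX chain, had 8.67, 9.60, 7.69 and 5.59 CPM in mutants, against 13.6, 15.2, 15.1 and 13.4 CPM in controls. Both pairs of groups were apart, and Col2a1 fell by 1.20 ± 0.38 (edgeR adjusted p = 0.0353) and Col9a1 by 0.86 ± 0.27 (edgeR adjusted p = 0.0349) on the log2 scale. Leaving out single LPD libraries ended both calls: 7 of the 8 for Col2a1 (all but control LPD 1; adjusted p up to 0.108), and mutant LPD 1, mutant LPD 3, mutant LPD 4, control LPD 2 or control LPD 3 for Col9a1 (adjusted p up to 0.117). Col9a3, the third type IX chain, had 27.6 to 38.4 CPM in mutants and 48.3 to 65.6 CPM in controls and missed the threshold (log2 fold change -0.85, edgeR adjusted p = 0.0830); 6.07% of its exon bases overlap Tcfl5 on the other strand. On ND these 3 genes did not pass, with mutant and control CPM ranges that overlapped: Col2a1 had a log2 fold change of 0.30, Col9a1 of 0.13 and Col9a3 of 0.13. In FPKM the ND groups of Col9a1 were apart, with 2.105 to 2.518 FPKM in mutants and 2.757 to 3.879 FPKM in controls. Those of Col2a1 overlapped (4.435 to 6.972 FPKM in mutants, 5.278 to 8.313 FPKM in controls). On FPKM (limma, either pseudocount) none of the 3 genes was called on ND.

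As a class, fibril-associated genes together had 44.3 to 48.9 summed FPKM in mutant ND libraries, against 71.0 to 102 in controls. On HFD the sums were 21.9 to 25.2 in mutants and 39.9 to 42.5 in controls, and on LPD 28.2 to 34.2 in mutants and 49.7 to 79.5 in controls. These FPKM sums did not overlap on any diet, and Col9a2 and Col9a3 held most of them. In TMM-scaled CPM the summed level was 187 to 587 in mutant ND libraries and 234 to 428 in control ND libraries, which overlapped, while it was 106.5 to 117 in mutants and 157 to 174 in controls on HFD, and 125 to 151 in mutants and 193 to 257 in controls on LPD, without overlap. Of the 9 genes 1 rose and 1 fell on ND, where 13.7% of all genes rose and 13.3% fell. On HFD 0 rose and 1 fell, against 0.14% and 5.64% of all genes, and on LPD 0 rose and 3 fell, against 5.22% and 10.4% of all genes. The third to fall on LPD was Col22a1, a collagen of tissue junctions, with 1.19, 0.719, 0.615 and 0.672 CPM in mutants against 3.86, 2.21, 3.42 and 1.63 CPM in controls, which did not overlap (log2 fold change -1.78 ± 0.41, edgeR adjusted p = 0.00382).

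Markers of endocrine cells moved with these falls. Of all genes 13.3% fell on ND, 5.64% on HFD and 10.4% on LPD. The endocrine list includes Neurog3 itself, whose coding region mutants lack, so its fall was fixed by the design. All 15 markers of the endocrine list fell on ND, and 12 of 15 fell on HFD and on LPD. Their summed level was 58.6 to 87.0 CPM in mutant ND libraries and 4282 to 9449.7 CPM in control ND libraries, 53.1 to 155 CPM in mutants and 2298 to 3894 CPM in controls on HFD, and 48.5 to 458 CPM in mutants and 2438 to 5379.7 CPM in controls on LPD. The part of cell identity in the collagen values was not tested.

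**Figure D3:**
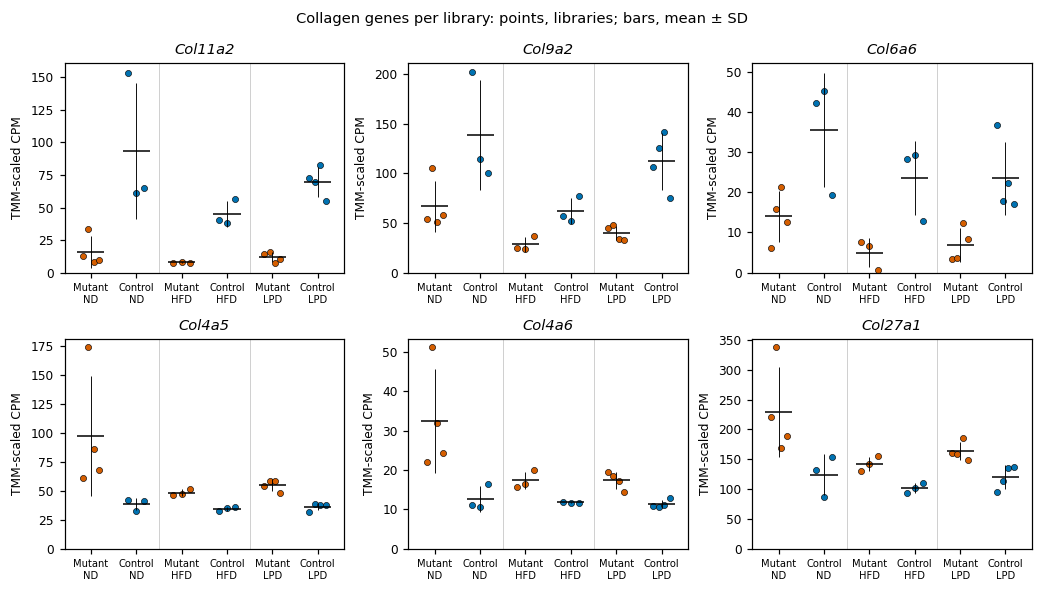
TMM-scaled CPM (vertical axis) of 6 collagen genes in the 21 libraries (points), by group with mutants left of controls on each diet; bars are the mean ± SD. Mutant libraries of Col11a2 lie at 7.47 to 33.9 CPM and its control libraries at 38.0 to 154 CPM, while Col4a5 and Col4a6 lie higher in mutants than in controls on each diet.

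Basement membrane collagens split by pair. Col4a5 (chrX:141475385-141689234) and Col4a6 (chrX:141165403-141474076), chains of the epithelial type IV network, lie head to head with 1308 bases between them. Col4a5 had 61.3, 174, 86.1 and 68.1 CPM in mutant ND libraries, against 42.2, 33.0 and 41.6 CPM in control ND libraries. Col4a6 had 22.1, 51.1, 31.9 and 24.3 CPM in mutants, against 10.998, 10.6 and 16.4 CPM in controls. Neither gene's groups overlapped. Col4a5 rose 2.49-fold on ND (log2 1.32 ± 0.24, edgeR adjusted p = 0.000387) and Col4a6 2.54-fold (log2 1.34 ± 0.23, edgeR adjusted p = 0.000204). The Col4a6 call held under all 34 alternatives, and the Col4a5 call under 33, all but a fit on the compared libraries alone. In FPKM the ND difference was smaller, with 9.88 to 10.3 FPKM of Col4a5 in mutants and 5.69 to 7.49 FPKM in controls.

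The same pair stood higher in mutants on the other diets without passing the threshold. On HFD Col4a5 had 46.6, 47.3 and 51.9 CPM in mutants, against 32.3, 35.0 and 36.0 CPM in controls, and Col4a6 15.7, 16.3 and 19.9 CPM in mutants, against 11.9, 11.7 and 11.7 CPM in controls. On LPD Col4a5 had 54.3, 58.8, 58.6 and 47.9 CPM in mutants, against 31.4, 38.8, 37.9 and 38.0 CPM in controls, and Col4a6 19.5, 18.4, 17.2 and 14.5 CPM in mutants, against 10.8, 10.6, 11.2 and 13.01 CPM in controls. No mutant library overlapped a control library of its diet, as in 11.7% of all genes on ND, 17.5% on HFD and 13.6% on LPD in this direction. The edgeR adjusted p was 0.399 for Col4a5 and 0.272 for Col4a6 on HFD, and 0.0740 for Col4a5 and 0.0502 for Col4a6 on LPD.

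The other type IV chains behaved less evenly. Col4a1 and Col4a2, the chains of nearly every basement membrane, overlapped between groups on each diet, with log2 fold changes of 0.84 and 0.97 on ND (edgeR adjusted p = 0.0982 and 0.0729); their first exons overlap by 22 bases on opposite strands. Col4a3 had 2, 0, 0 and 4 counts in mutant ND libraries and 4, 20 and 19 counts in control ND libraries, and passed on ND (log2 -2.73 ± 0.68, edgeR adjusted p = 0.00472), but these are few counts and 5.65% of its exon bases overlap an antisense transcript. Its neighbour Col4a4 had 0 to 2.00 CPM in mutants and 1.63 to 2.84 CPM in controls on ND and missed the threshold (edgeR adjusted p = 0.0539). On HFD and LPD Col4a3 had 0.158 to 0.424 CPM in mutants and 0.249 to 0.614 CPM in controls, below 1 CPM in both.

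Of the other genes that rose on ND, Col27a1, a fibrillar collagen of developing cartilage and epithelia, was among the more abundant. It had 221, 339, 169 and 188 CPM in mutant ND libraries, against 132, 86.6 and 154 CPM in controls, which did not overlap (log2 0.88 ± 0.21, edgeR adjusted p = 0.00330). Groups were also apart on HFD, with 130.2 to 155 CPM in mutants and 93.4 to 110.1 CPM in controls, and on LPD, with 149.5 to 185 CPM in mutants and 95.0 to 136 CPM in controls, but the adjusted p was 0.320 and 0.126. On FPKM (limma) the ND call was lost with either pseudocount, 1 or 0.1.

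Col7a1, which anchors the epidermal basement membrane to the tissue below, rose on ND and LPD. It had 10.0, 38.1, 23.8 and 13.6 CPM in mutant ND libraries, against 10.4, 6.78 and 7.60 CPM in controls, and 18.6, 17.7, 16.7 and 21.03 CPM in mutant LPD libraries, against 6.48, 9.39, 11.1 and 10.8 CPM in controls. Groups overlapped on ND and not on LPD. The log2 rise was 1.36 ± 0.33 on ND (edgeR adjusted p = 0.00350) and 0.97 ± 0.29 on LPD (edgeR adjusted p = 0.0265). On FPKM (limma, either pseudocount) the LPD call was kept and the ND call lost. Without mutant LPD 1, LPD 2 or LPD 4, or control LPD 1 or LPD 2, the LPD adjusted p reached 0.141. On HFD it had 14.3 to 18.3 CPM in mutants and 10.6 to 15.7 CPM in controls (log2 0.17, edgeR adjusted p = 0.908).

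Col16a1, which joins fibrils to the matrix around them, and Col15a1, a vessel and muscle basement membrane multiplexin, were the last to pass on ND. Col16a1 had 35.9, 188, 66.0 and 39.2 CPM in mutants, against 38.7, 21.96 and 21.97 CPM in controls (log2 1.57 ± 0.44, edgeR adjusted p = 0.0116), and the groups overlapped. Without control ND 3 or control ND 4 its adjusted p reached 0.0648. Col15a1 had 76.0, 119, 83.8 and 39.9 CPM in mutants, against 36.0, 17.01 and 53.6 CPM in controls (log2 1.16 ± 0.41, edgeR adjusted p = 0.0415), and lost its call without any of mutant ND 1, ND 2 or ND 3, control ND 2 or ND 3, or mutant LPD 2 (adjusted p up to 0.185). On FPKM (limma, either pseudocount) neither gene was called on ND.

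The type VI genes, which form beaded microfilaments around cells, had 1 call among 6 genes and 3 diets. Of all genes 27% were called on ND, 5.78% on HFD and 15.6% on LPD. Col6a6 had 3.41, 3.60, 12.3 and 8.45 CPM in mutant LPD libraries, against 36.7, 17.9, 22.2 and 17.02 CPM in controls, without overlap (log2 -1.76 ± 0.56, edgeR adjusted p = 0.0405). This call was lost without any of 8 single libraries (mutant LPD 1, LPD 2, LPD 4 or HFD 2, control LPD 1, LPD 3, HFD 1 or HFD 2; adjusted p up to 0.123). On HFD it had 7.56, 6.64 and 0.762 CPM in mutants, against 28.3, 29.3 and 12.9 CPM in controls (log2 -2.23 ± 0.66, edgeR adjusted p = 0.0559). On ND it had 6.21, 15.95, 21.2 and 12.6 CPM in mutants, against 42.2, 45.2 and 19.2 CPM in controls (log2 -1.35 ± 0.59, edgeR adjusted p = 0.0987). The 3 chains of the common type VI trimer, Col6a1, Col6a2 and Col6a3, overlapped between groups on each diet.

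The most abundant interstitial collagens did not separate the genotypes. Col1a1 had 314, 4661, 1810.0 and 457 CPM in mutant ND libraries, against 902, 294 and 215 CPM in controls. On HFD it had 270.2, 272 and 40.7 CPM in mutants, against 455, 391 and 63.7 CPM in controls, and on LPD 84.2, 78.2, 315 and 375 CPM in mutants, against 239, 62.1, 71.6 and 289 CPM in controls. Values within a group differed by more than the groups did, and the edgeR adjusted p was 0.194 on ND, 0.891 on HFD and 0.861 on LPD. Col3a1 had a log2 fold change of 1.80 on ND (edgeR adjusted p = 0.213). Of the 11 fibrillar genes 10 had a positive value on ND (median 1.57), and 9 of 11 did on log2(FPKM + 1) (median 0.46). On ND 2 of the 11 rose and 1 fell, where 13.7% of all genes rose and 13.3% fell.

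These levels differed by library within groups. The 6 libraries with the lowest Col1a1 were mutant HFD 3, mutant LPD 1, mutant LPD 2, control HFD 3, control LPD 2 and control LPD 3, at 40.7 to 84.2 CPM, against 215 to 4661 CPM in the other 15. In 13 collagen genes, Col1a1 included, all 6 were below all 15: 6 fibrillar (Col1a1, Col1a2, Col3a1, Col5a1, Col5a2, Col5a3), 3 type VI (Col6a1, Col6a2, Col6a3), Col8a2, Col12a1, Col14a1 and Col16a1, and 0 of 6 type IV genes. That is 13 of 44, against 0.749% of all 23630 genes tested. The libraries were chosen by Col1a1, so this is a description with no test. In the sample descriptions control LPD 2 is library number 6, and the other low libraries are numbers 15 to 19. Every library numbered 15 to 19 was among the low ones. The part of library number in these levels was not tested. At the other end, 26 of 44 collagen genes were highest in mutant ND 2, against 19.2% of all genes, and in 23 the 2 highest values were those of mutant ND 2 and mutant ND 3, against 8.76% of all genes. Both libraries had over 70% duplicates, and their TMM factors were 0.381 and 0.786; the part of either in these levels was not tested.

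Of 24 mesenchymal markers 7 also had all 6 low libraries below the other 15 (Pdgfra, Lum, Prrx1, Osr1, Barx1, Postn and Fbn1), with Pdgfra at 1.34 to 3.44 CPM against 3.93 to 18.5 CPM and Lum at 0.426 to 0.863 CPM against 2.98 to 7.86 CPM. The other 17 did not, among them Vim, Fn1 and Fbln1, and Fbln2 was highest in mutant LPD 1. The 24 markers summed to 946 and 917 CPM in the low libraries mutant LPD 1 and LPD 2, and to 602 CPM in control ND 2, where Col1a1 was 902 CPM. Of 15 endothelial markers 0 had all 6 below the other 15. Over all genes tested the share was 0.749%, so 0 of 15 is near it. By genotype, 5 of 23 tested mesenchymal markers rose and 0 fell on ND, 0 and 0 on HFD, and 2 and 0 on LPD, where 13.7%, 0.14% and 5.22% of all genes rose. Their summed level was 960 to 1314 CPM in mutants and 602 to 737 CPM in controls on ND, 751 to 892 CPM in mutants and 647 to 920.1 CPM in controls on HFD, and 917 to 1038 CPM in mutants and 604 to 955 CPM in controls on LPD. Much of these sums was Fbln2 (103 to 462 CPM over all libraries), Vim (159 to 295 CPM) and Fn1 (132 to 258 CPM). On ND the groups overlapped in Dcn, in Prrx1 and in Pdgfra (9.62 to 18.5 CPM in mutants, 8.23 to 9.70 CPM in controls). They were apart in Lum (5.75 to 7.86 CPM in mutants, 3.36 to 4.76 CPM in controls). The epithelial markers Epcam (194 to 448 CPM) and Cdh1 (445 to 1161 CPM) were present in all 21 libraries. The part of mesenchymal RNA in the collagen values was not tested.

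**Figure D4:**
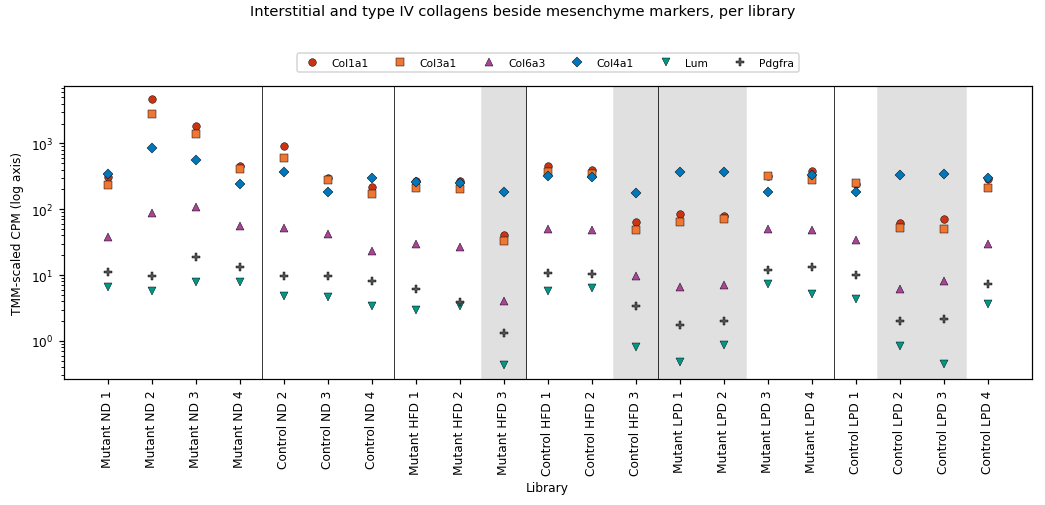
TMM-scaled CPM (log axis) of Col1a1, Col3a1, Col6a3, Col4a1 and the mesenchymal markers Lum and Pdgfra in each of the 21 libraries, mutants left of controls on each diet; grey marks the 6 libraries of lowest Col1a1. In Col1a1 these 6 lie at 40.7 to 84.2 CPM and the other 15 at 215 to 4661 CPM, while Col4a1 in the same 6 libraries overlaps the others.

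**Figure D5:**
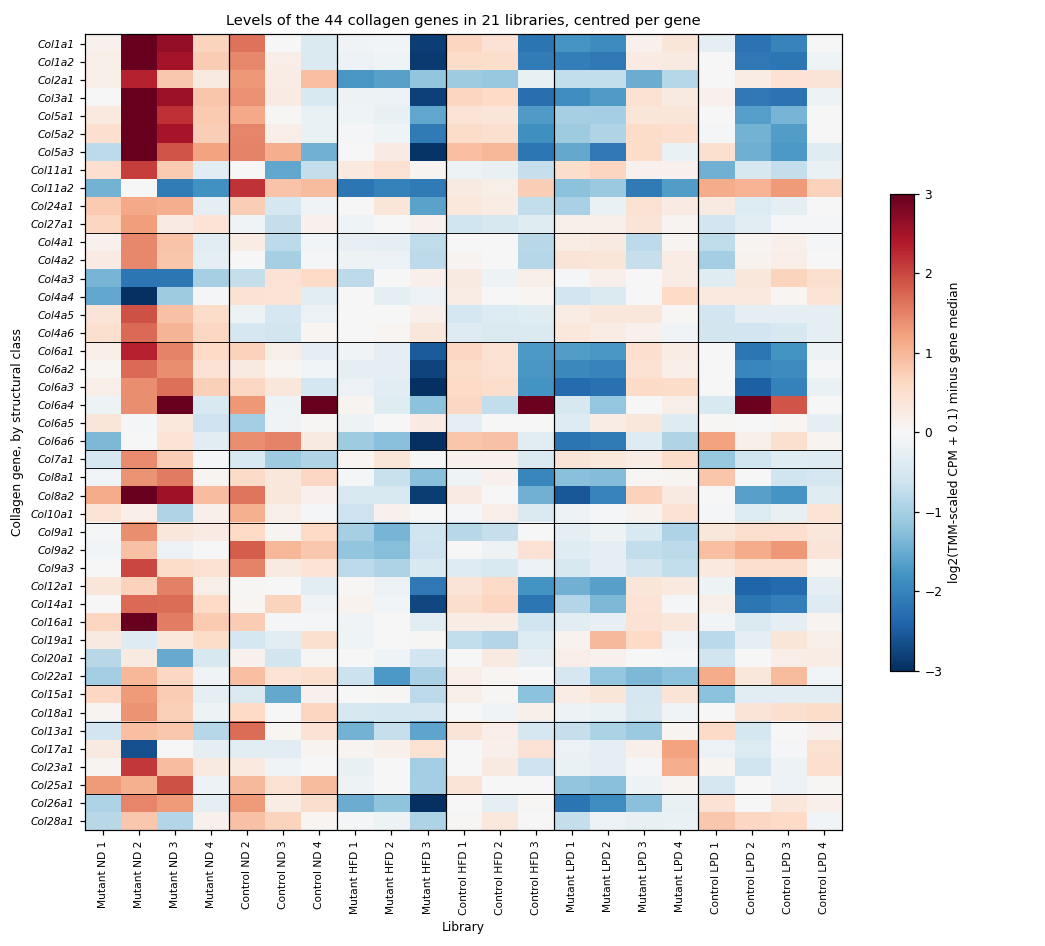
Log2(CPM + 0.1) of each of the 44 collagen genes (down the page, by class) minus its median over the 21 libraries (across, by group). Mutant ND 2 and ND 3 stand high over most genes, and the low columns of the interstitial genes belong to the same 6 libraries.

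The second question was what the maternal diets did within a genotype. In mutants on HFD against mutants on ND, 9 of 44 genes fell and 0 rose, 20.5% against 2.86% of all genes, of which 0.961% rose and 1.9% fell. They were Col2a1, Col4a5, Col4a6, Col9a1, Col9a2, Col9a3, Col16a1, Col18a1 and Col26a1. Col2a1 had 10.0, 10.8 and 14.9 CPM in mutant HFD libraries, against 38.3, 169, 59.6 and 40.7 CPM in mutant ND libraries, without overlap (log2 -2.68 ± 0.44, edgeR adjusted p = 0.00570). Col18a1 had 115, 110.4 and 112 CPM on HFD, against 171, 409, 261 and 143 CPM on ND (log2 -1.13 ± 0.25, edgeR adjusted p = 0.0239). Col26a1, a little studied collagen known from testis and ovary, had 1.89, 2.33 and 0.335 CPM on HFD, against 2.84, 15.48, 13.4 and 4.52 CPM on ND (log2 -2.55 ± 0.62, edgeR adjusted p = 0.0329).

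The other 6 of these 9 genes fell by between 0.89 and 1.98 on the log2 scale, with edgeR adjusted p-values of 0.0147 (Col9a1), 0.0218 (Col9a3), 0.0260 (Col16a1), 0.0298 (Col9a2), 0.0321 (Col4a5) and 0.0403 (Col4a6). In 21 of the 44 genes every mutant HFD library lay below every mutant ND library, against 7.86% of all genes. The median log2 change of the 44 genes was -1.41, against -0.0078 over all genes.

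These diet counts changed with the libraries in the fit. Library numbers of 25 or above were all ND among these groups, and with a term for them 0 genes were called; below 25 there was 1 mutant ND and 1 control ND library, too few for values within that block. Without the 3 ND libraries of over 70% duplicates 2 genes were called. Without mutant HFD 1, HFD 2 or HFD 3 the count was 1, 0 and 2, and without mutant ND 1 or ND 4 it was 16 and 17. In HFD against ND in mutants 1.9% of all genes fell and 0.961% rose, and 2 of 23 mesenchymal markers fell and 0 rose. Their median log2 change was -1.07, and 11 of them lay lower in every mutant HFD library than in every mutant ND library, against 7.86% of all genes. Their part in the collagen values was not tested.

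In mutants on LPD against mutants on ND, 5 of 44 genes fell and 0 rose, 11.4% against 1.05% of all genes, of which 0.41% rose and 0.643% fell. Col2a1 had 20.2, 20.1, 11.97 and 18.8 CPM on LPD, against 38.3, 169, 59.6 and 40.7 CPM on ND, without overlap (log2 -2.10 ± 0.39, edgeR adjusted p = 0.0269). Col4a6 (log2 -0.88 ± 0.21), Col9a3 (-1.47 ± 0.33), Col16a1 (-1.74 ± 0.40) and Col25a1 (-1.81 ± 0.42), the last a transmembrane collagen of neurons, had edgeR adjusted p-values of 0.0440, 0.0398, 0.0438 and 0.0402. The groups of Col25a1 overlapped. The median of the 44 genes was -0.95, against 0.057 over all genes. With the term for library numbers, without the 3 ND libraries of over 70% duplicates, or without any of mutant LPD 1, LPD 2 or LPD 3, 0 genes were called; the count was 2 without mutant LPD 4 or mutant HFD 3, 3 without control LPD 4, 1 without mutant HFD 1 or HFD 2, mutant ND 2 or ND 3, control LPD 2 or LPD 3, or any control HFD library, 16 without mutant ND 1 and 13 without mutant ND 4.

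In controls on HFD against controls on ND, Col2a1 and Col9a2 fell and 0 genes rose, 4.55% against 3.91% of all genes, of which 3.1% rose and 0.808% fell. Col2a1 had 16.02, 15.4 and 28.8 CPM on HFD, against 83.1, 39.6 and 63.5 CPM on ND (log2 -1.63 ± 0.44, edgeR adjusted p = 0.0430). Col9a2 had 57.6, 52.0 and 77.4 CPM on HFD, against 202, 114 and 100.4 CPM on ND (log2 -1.16 ± 0.30, edgeR adjusted p = 0.0345). Neither gene's groups overlapped, and Col9a3 came next (log2 -1.18, edgeR adjusted p = 0.0844). The count was 0 without control HFD 1, control HFD 2, control ND 2 or control ND 3, 1 without control ND 4, control LPD 2 or LPD 3, any mutant HFD library or mutant LPD 1, LPD 2 or LPD 4, and 5 without mutant ND 2.

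In controls on LPD against controls on ND, edgeR called 0 of 44 collagen genes and 0% of all genes, and DESeq2 called 0 collagen genes. At an unadjusted p under 0.05 there was 1 collagen gene, against 6.57% of all genes: Col25a1 had 0.914 to 1.37 CPM in control LPD libraries and 1.88 to 2.71 CPM in control ND libraries (edgeR adjusted p = 0.725). The comparisons within mutants share their ND libraries, as do those within controls, so falls seen on both diets are not independent of each other.

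Whether a genotype difference itself differed between diets was tested as an interaction. For HFD against ND edgeR called 0 of 44 collagen genes and 0% of all genes, with 5 collagen genes and 7.1% of all genes at an unadjusted p under 0.05. For LPD against ND it called 0 of 44 and 0% of all genes, with 8 collagen genes and 5.85% of all genes at an unadjusted p under 0.05. DESeq2 called 0 collagen genes in both. The lowest p-values belonged to Col16a1 for HFD (interaction log2 -1.71, edgeR adjusted p = 0.650) and to Col4a3 for LPD (interaction log2 2.40, edgeR adjusted p = 0.832). The calls of Col2a1 on LPD and of Col4a5 on ND are therefore not shown to belong to 1 diet.

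The genes that fold, cut, bind and degrade collagen were read from 4 lists. For all of them the background is the share of all genes that rose and fell: 13.7% and 13.3% on ND, 0.14% and 5.64% on HFD, and 5.22% and 10.4% on LPD. Of 35 tested genes of collagen processing 12 rose and 4 fell on ND, 0 rose and 1 fell on HFD, and 2 rose and 2 fell on LPD. Fkbp10, a folding enzyme of type I collagen, rose on ND (log2 1.19, edgeR adjusted p = 0.000367), as did Ppib, a folding enzyme (log2 0.83, edgeR adjusted p = 0.000688 on ND; log2 0.62, edgeR adjusted p = 0.00531 on LPD). Bmp1, the protease that trims procollagen, fell on HFD (log2 -0.92, edgeR adjusted p = 0.00295) and LPD (log2 -1.26, edgeR adjusted p = 1.57e-05), and Mia3, which loads collagen into transport carriers, fell on ND (log2 -0.56, edgeR adjusted p = 0.000625).

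Of 24 basement membrane partners 13 rose and 1 fell on ND, 1 rose and 1 fell on HFD, and 4 rose and 1 fell on LPD. Fras1, of the epithelial Fraser complex, rose on all 3 diets (log2 1.18, 0.69 and 0.88 on ND, HFD and LPD; edgeR adjusted p = 4.96e-05, 0.0247 and 0.000511). Itga6, a laminin receptor subunit, rose on ND (log2 1.16, edgeR adjusted p = 7.33e-05) and LPD (log2 0.84, edgeR adjusted p = 0.000979), while Npnt, an integrin ligand, fell on HFD (log2 -0.80, edgeR adjusted p = 0.0259) and LPD (log2 -0.82, edgeR adjusted p = 0.00405).

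Markers of other pancreatic cells moved with these counts. Of all genes 13.7% rose on ND, 0.14% on HFD and 5.22% on LPD, where 10.4% fell. Of 12 acinar markers 10 rose on ND, 0 on HFD and 11 on LPD. They summed to 13924 to 25941 CPM in mutants and 6999 to 9058 CPM in controls on ND, 34935 to 36996 CPM in mutants and 24107 to 29771 CPM in controls on HFD, and 26033 to 34829 CPM in mutants and 5799.9 to 17624 CPM in controls on LPD. Of 8 pericyte markers 4 rose on ND, 0 on HFD and 2 on LPD, with sums of 404 to 659 CPM in mutants and 261 to 268 CPM in controls on ND, 616 to 706 CPM in mutants and 510.2 to 573 CPM in controls on HFD, and 559.6 to 685 CPM in mutants and 192 to 450.4 CPM in controls on LPD. Much of these sums was 1 gene, Anpep, at 121 to 626 CPM over the 21 libraries. Anpep was highest in mutant HFD 3, where the pericyte marker Rgs5 was lowest, at 0.518 CPM. On ND Rgs5 had 2.11 to 5.26 CPM in mutants and 2.49 to 5.94 CPM in controls. Of 8 epithelial markers 3 rose on ND, 0 on HFD and 1 on LPD, where 1 fell, with sums of 2818 to 3976 CPM in mutants and 2025 to 2444 CPM in controls on ND, 3535 to 4349 CPM in mutants and 2739 to 3563 CPM in controls on HFD, and 3097 to 3863 CPM in mutants and 1848 to 3163 CPM in controls on LPD. Their part in the counts of the 4 lists and of the collagen genes was not tested.

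Of 11 collagen receptors 0 rose on any diet and 2 fell on ND, 0 on HFD and 1 on LPD. Ddr1, an epithelial receptor kinase for collagen, fell on ND (log2 -0.82, edgeR adjusted p = 0.00392) and LPD (log2 -1.04, edgeR adjusted p = 0.000507). Of 11 collagen-degrading enzymes and their inhibitors 0 rose and 1 fell on ND, 0 and 0 on HFD, and 1 and 1 on LPD: Timp4, an inhibitor of metalloproteases, fell on ND (log2 -1.58, edgeR adjusted p = 0.0182) and LPD (log2 -2.19, edgeR adjusted p = 0.00221).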

How the data were processed

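RNA of sorted cells was depleted of ribosomal RNA and made into strand-specific libraries, per the labels' protocols. The submitters' processing notes name cutadapt 2.10, STAR 2.7.8a, featureCounts 2.0.2 and GRCm38.p6; those sources do not state the strand setting of counting. The authors deposited raw counts per gene, FPKM, and per-library alignment figures in percent such as the deposited percent of duplicates. FPKM rebuilt from the counts differed from the deposited FPKM by a median of 9.6e-05, with 100% of values within 1%. Counts came from 21 libraries of 6 groups, each 17922240 to 44688814 deep, which limits the precision of low genes such as Col4a3.

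Counts were filtered by filterByExpr (23630 of 40173 genes kept, at least 99.906% of the counts), scaled by TMM and fitted together with edgeR 4.0.16 (robust quasi-likelihood, R 4.3.3). Each of 9 comparisons was adjusted by Benjamini-Hochberg over all tested genes at 0.05. The standard error is the fold change over the root of F. Levels of 1 gene between libraries are TMM-scaled CPM, levels between genes deposited FPKM. Alternatives used limma 3.58.1 on log2(FPKM + 1) or log2(FPKM + 0.1), DESeq2 1.42.0, other filters, scalings and library sets; figures used matplotlib 3.10.9. The model was checked on simulated counts. Replicates of 1 group differed by a chi-square of 4.39 to 794 per degree of freedom over 27 pairs, so none was an identical copy. The closest pairs were mutant HFD 1 with HFD 2 (4.39) and mutant LPD 1 with LPD 2 (4.70), and the next lowest value was 17.3. The sources used here do not say whether either pair came from separate embryos. Each library was counted as 1 replicate. Deviations of same-numbered HFD libraries had correlations of 0.107, 0.222 and 0.411, against -0.333 to 0.179 for differently numbered ones, so the ranges overlapped. The block changed 0 HFD genotype calls. ND (-0.019 to 0.295) and LPD (-0.326 to 0.348) numbers did not pair.

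The members and lists were chosen with earlier results of these data known. Genes named with values were, per class, the 2 of highest mean FPKM; every collagen gene past the threshold in any comparison, or the 3 of smallest p where fewer than 3 passed outside the genotype comparisons; the head-to-head type IV pairs; and up to 3 genes of smallest p per list. Names damaged into dates were restored for 26 genes, and 2 rows without a gene ID stayed out. RefSeq promoter windows matched 35 of the 44 members.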

Additional observations from a re-analysis of the deposited data

Results flagged for a closer look

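Over the 30 named collagen genes, in 90 groups of 4 libraries, 7 held a library far from the other 3, where chance gives about 1 in 20. The same libraries recur across genes, so the 90 groups are not independent and 7 cannot be weighed against that rate. On ND, mutant ND 2 stood apart in Col2a1 (169 CPM, others 38.3 to 59.6), Col9a2 (105 CPM, others 50.6 to 57.9) and Col9a3 (185 CPM, others 46.2 to 68.2). On LPD, control LPD 1 was low in Col4a5 (31.4 CPM, others 37.9 to 38.8) and in Col15a1 (20.7 CPM, others 38.6 to 39.0). Mutant LPD 4 was high in Col23a1, a transmembrane collagen (14.6 CPM, others 5.72 to 6.56), and mutant LPD 1 low in Col28a1 (0.505 CPM, others 0.752 to 0.791).

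Some libraries outside the comparisons exceeded the libraries within them. Collagen took 0.659% of counts in the mixed ND library, against at most 0.379% in a control library and 0.554% in a mutant library, mutant ND 2. The mixed library had 80.2% duplicates, and Gm26917 took 56.8% of its counts. The single mutant and control hypothalamic libraries lay above all 21 pancreatic libraries in Col11a1 (3.74 FPKM mutant, 3.96 FPKM control, at most 1.51 in pancreas), Col22a1 (1.74 and 2.52, at most 0.564), Col23a1 (4.77 and 3.99, at most 2.63), Col25a1 (1.29 and 1.43, at most 0.320) and Col28a1 (0.960 and 0.80, at most 0.455). In Col4a3 the control hypothalamic library did (0.0930 FPKM, at most 0.0700 in pancreas). Levels of 1 library a group carry no test.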

How the results depend on the processing

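Over 34 alternatives, called collagen values of the 9 comparisons kept their call 876 times and lost it 314 times. Uncalled values were counted only for the 30 named genes in the 3 genotype comparisons. They stayed uncalled 2316 times and passed 98 times, and 0 values of either kind reversed. Genes that passed in a diet comparison only under an alternative are not among these 98. With only the compared libraries in the fit the count of calls was 2 for the genotypes on ND (Col11a2 and Col4a6), 9 on HFD, 15 on LPD, and 0 for HFD and for LPD against ND in mutants. DESeq2 called 4 (genotype, HFD), 4 (HFD against ND, controls), 23 (HFD against ND, mutants) and 16 (LPD against ND, mutants). On log2(FPKM + 0.1) limma called 4 on HFD and 11 on LPD between genotypes and 1 in each mutant diet comparison; on log2(FPKM + 1) it called 12 on LPD and 1 in each of these. Without the 3 ND libraries of over 70% duplicates the counts were 7 (HFD), 14 (LPD), 2 (HFD against ND, mutants) and 0 (LPD against ND, mutants). With the mixed library as a control they were 2 (LPD), 1 (HFD against ND, mutants) and 0 (LPD against ND, mutants). Mutant HFD 1, LPD 1 and LPD 2 had 24.1, 94.9 and 102 CPM (of the library total) of the insulin gene Ins2. The other mutant libraries had at most 1.63 CPM. Without mutant HFD 1, LPD 1 and LPD 2 the counts of calls were 3 (LPD) and 0 (HFD against ND in controls and in mutants, LPD against ND in mutants). Without a filter on low counts they were 0 (HFD against ND, controls) and 2 (LPD against ND, mutants). With a term for library numbers they were 0 in these and in HFD against ND in mutants. With mutant LPD 1 and LPD 2 summed they were 1 (HFD against ND, controls) and 0 (LPD against ND, mutants). The replicate block gave 11 on ND, 2 on HFD and 7 on LPD between genotypes, 1 for HFD against ND in controls, 7 in mutants and 2 for LPD against ND in mutants. Leaving out 1 library at a time gave 7 to 13 (ND), 1 to 3 (HFD), 3 to 14 (LPD), 0 to 5 (HFD against ND, controls), 0 to 17 (HFD against ND, mutants) and 0 to 16 (LPD against ND, mutants), and 0 in LPD against ND in controls and both interactions. The cause of these shifts was not tested.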

Other observations

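Col6a4, a type VI chain, was chosen after its values were seen. It stood at 2.73 CPM in mutant ND 3, 3.03 CPM in control ND 4, 2.26 CPM in control HFD 3, 2.24 CPM in control LPD 2 and 1.02 CPM in control LPD 3, and at 0.0305 to 0.704 CPM in the other 16 libraries. It passed in no comparison, and 3.39% of its exon bases overlap other genes.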
